A study of Danio rerio with 72 samples.

Results

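The genes klf6a and ccl25b were followed through laser-captured regions of the zebrafish tail. Both were taken by name, with earlier results of these data known, so the choice was not blind to their values. They are 2 of the 25067 protein-coding genes in the table of each series. The gene klf6a was found at its highest level in the captures of the caudal vein plexus and the caudal vein, and it was also present in neural tissue. The gene ccl25b was at most 72.9 FPKM in the neural and muscle captures, and other tissues were not captured apart. It was among the most abundant transcripts in the captures of the caudal vein plexus.

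Polyadenylated RNA was sequenced from frozen tail cross-sections of zebrafish embryos aged 52 hours post fertilization. Each section was stained with cresyl violet and gave 6 captures taken by position. The vascular captures were the caudal vein plexus (CVP), the caudal vein (CV) and the caudal artery (CA). Together they are called here the caudal hematopoietic tissue (CHT), an embryonic home of blood stem and progenitor cells. Around the vessels, neural tissue (N), left muscle (L) and right muscle (R) were captured, and the mean of L and R is called muscle. No strain, transgene or treatment is named in the labels, so the groups differ in position within the tail and in series. The libraries form 2 series, M and Z, of 6 sections each, and what M and Z stand for is not given. The sections are numbered by layer, with layers 2, 6, 8, 12, 15 and 17 in series M and layers 1, 6, 10, 19, 22 and 25 in series Z. The labels do not say which sections come from 1 embryo, so p-values measure the spread between sections, and where sections share an embryo they are too small.

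Krüppel-like factors are zinc finger transcription factors, and in mammals Klf6 is known from the injured endothelium, the liver and macrophages. Ccl25 is a CC chemokine, a small secreted protein that draws cells carrying its receptor Ccr9. In mammals it is known above all from the thymus and the small intestine, and Ackr4 is a scavenging receptor that binds and removes it. In the caudal hematopoietic tissue, chemokines and growth factors made by vessel wall and stromal cells are part of the niche in which blood stem and progenitor cells lodge.

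Of the 72 libraries, 71 were used, because L of layer 6 in series Z held nothing but the rounded-up mean of 2 other libraries. Values are FPKM, reads divided by gene length and by library total, so levels can be set side by side between genes. Library totals were 75007 to 875545 reads (median 315180) in series M and 91102 to 4009980 reads (median 704921) in series Z. The vascular libraries of series M were the shallowest, with 75007 to 487552 reads. A laser capture holds every cell type in its outline, and in such bulk samples fewer cells of a type and less RNA per cell cannot be told apart. The endothelial marker list (15 genes) had a mean log2(FPKM + 1) of 3.87 in CVP, 0.98 in CV and 3.37 in CA of series M, against 1.23 in N. In series Z it was 4.31 in CVP, 3.93 in CV and 3.99 in CA, against 1.05 in N. In series M the CV mean therefore stood below the N mean for endothelial markers, although in layer 17 CV was at 1.98 and N at 1.38, and cldn5b, esama, erg and sox18 were at 0 in all of them. Epidermal markers had their highest vascular level in CV, at 9.20 in series M and 8.44 in series Z. Correlated with the region means, 4 vascular libraries of series M (CVP of layer 17, and CA of layers 8, 15 and 17) and 3 of series Z (CVP of layers 22 and 25, CV of layer 25) lay nearer to another region than to their own. CA of layer 8 in series M lay nearest to muscle.

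The gene klf6a, which encodes the Krüppel-like transcription factor, was detected in every region. In series M its lowest, median and highest FPKM were 30.2, 188.6 and 276.7 in CVP, 74.2, 125.3 and 310.4 in CV, and 0, 94.6 and 167.9 in CA. In the surrounding captures of series M they were 18.6, 79.4 and 112.0 in N, 0.986, 15.3 and 31.3 in L, and 0, 11.5 and 63.3 in R. The neural captures of series M thus lay inside the range of the vascular ones, and the muscle captures, apart from R of layer 17, lay at 31.3 FPKM or lower. In series Z the corresponding FPKM were 82.0, 126.1 and 341.8 in CVP, 39.1, 74.4 and 124.0 in CV, and 0, 30.9 and 71.4 in CA. In the surrounding captures of series Z they were 14.1, 23.2 and 53.0 in N, 3.99, 12.4 and 19.3 in L, and 3.26, 12.7 and 55.8 in R. Every CVP capture of series Z lay above every surrounding capture, CV overlapped with them through layer 25 alone, and CA overlapped with N, L and R. How many of all genes separate in this way was not counted. The mean of klf6a in CVP was 171 ± 92.4 FPKM in series M and 156 ± 94.8 FPKM in series Z (SD, n = 6 each), which placed it at rank 238 and rank 342 of all genes.

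**Figure D1:**
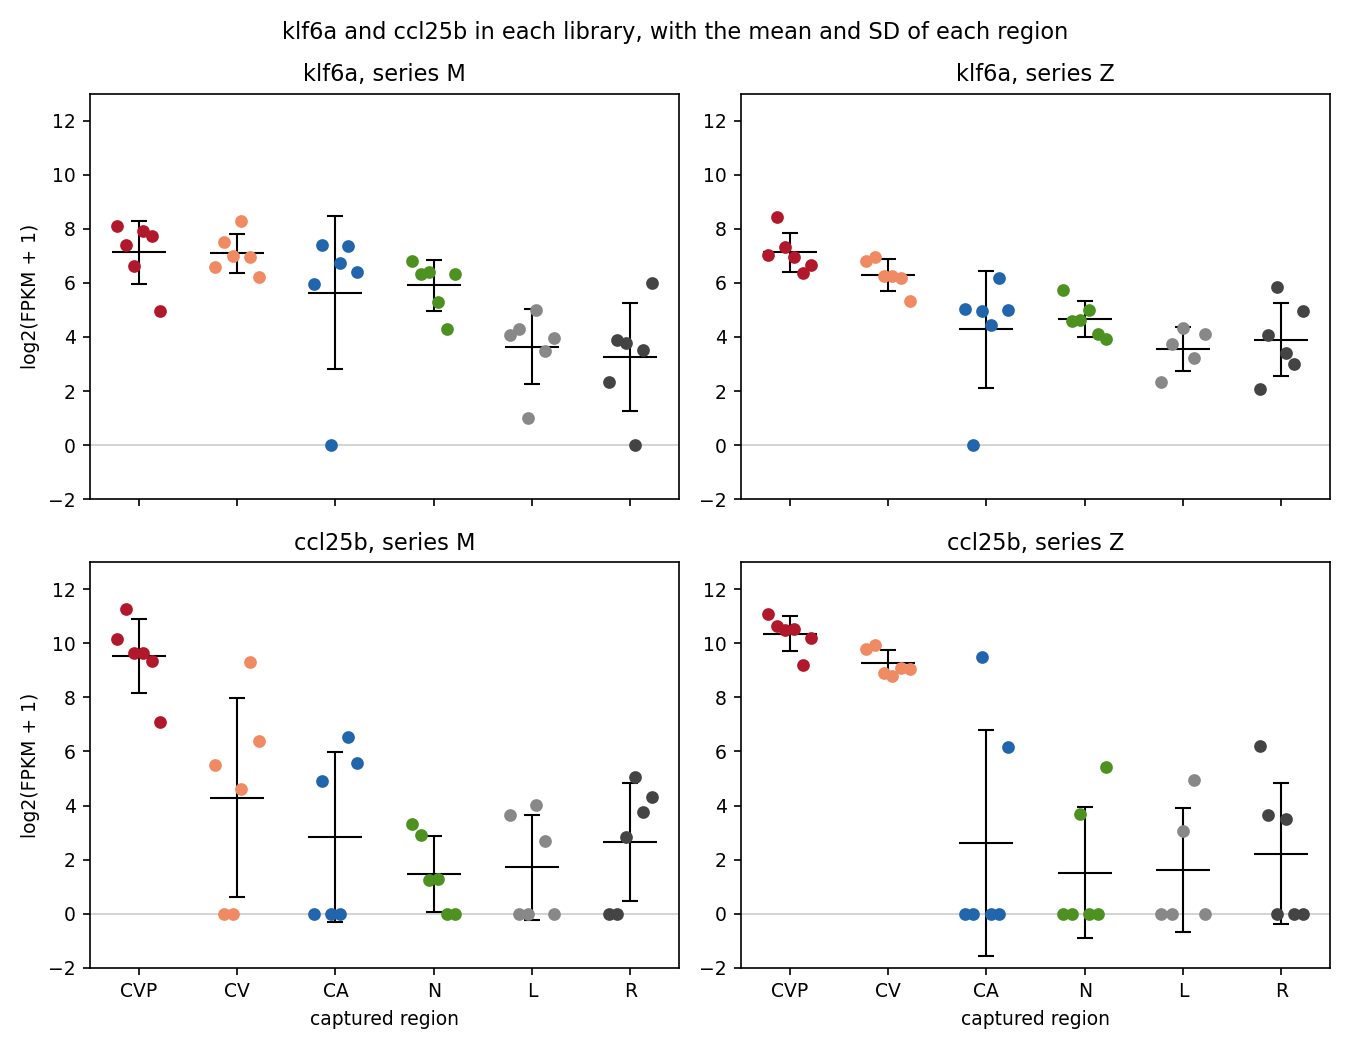
Level of klf6a (top) and ccl25b (bottom) as log2(FPKM + 1) in each library of series M (left) and series Z (right), by captured region. Each point is 1 library in layer order, and the black mark and bar are the mean and SD of the region. For klf6a the regions form a graded series with N among the vessels, and for ccl25b CVP stands high in both series, CV stands high in series Z and no surrounding library reaches the CVP libraries.

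Over the pooled captures, klf6a had a median of 125.3 FPKM in the CHT and 17.3 FPKM in surrounding tissue in series M, and 74.4 and 16.2 FPKM in series Z. It rose in the CHT in both series, by 2.36 ± 0.53 on the log2(FPKM + 1) scale in M and 1.89 ± 0.45 in Z (estimate ± SE, limma, Benjamini-Hochberg adjusted p = 0.00126 and 0.00204). Of all genes tested, 17.8% were called here in M and 21.9% in Z, and the median change of all genes was 0.14 and 0.19. The CHT mean was above the surrounding mean in 6 of 6 sections of either series. The ratio of mean FPKM was 4.15 in series M and 4.46 in series Z. In series M the vascular libraries held 75007 to 487552 reads and the surrounding ones 201481 to 875545. With every library thinned to the lowest total of its series, an alternative chosen after seeing the data, the changes were 2.35 and 2.05 for klf6a and 3.83 and 5.83 for ccl25b, and all 4 stayed called (limma adjusted p = 0.00174, 0.00328, 0.00041 and 1.27e-06).

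The neural and muscle captures gave different answers for klf6a. Against muscle it rose in the CHT by 3.18 ± 0.59 in M and 2.22 ± 0.51 in Z (limma adjusted p = 0.000101 and 0.00148), where 24.5% and 26.2% of genes were called. The median change of all genes against muscle was 0.71 in M and 0.65 in Z. Against neural tissue the change was 0.71 ± 0.75 in series M and 1.24 ± 0.63 in series Z (limma adjusted p = 0.507 and 0.141), where 29% and 28.2% of genes were called. The CHT mean was above N in 4 of 6 sections in M, and in 6 of 6 in Z. In this comparison the median of all genes shifted by -0.91 in M and -0.65 in Z. Quantile scaling sets the libraries to a common distribution of values. With it, klf6a was 2.04 higher in the CHT than in N in series Z (limma adjusted p = 0.0100) and 0.87 higher in series M (limma adjusted p = 0.452). In the main fit, CVP alone against N gave 1.21 ± 0.92 in series M and 2.47 ± 0.77 in series Z for klf6a. Only the change in series Z passed (limma adjusted p = 0.422 and 0.0191), where 15.7% and 19.4% of genes were called. In series M klf6a was itself higher in N than in the muscle, by 2.28 ± 0.92 against L and 2.66 ± 0.92 against R (limma adjusted p = 0.0445 and 0.0192). In those contrasts 40.8% and 44.1% of all genes were called. In series Z the same changes were 1.20 ± 0.81 and 0.77 ± 0.77 and did not pass (limma adjusted p = 0.253 and 0.444; 33.7% and 39.2% of genes called).

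Within the vessels, klf6a had its lowest mean level in the artery captures, though only CVP against CA of series Z was called. The skeletal muscle list (9 genes) had a mean log2(FPKM + 1) of 7.30 in CA, 3.15 in CV and 6.10 in CVP of series M. In series Z it was 7.51, 2.07 and 3.29. The part of muscle RNA in the artery values was not tested. Over 6 sections, r of klf6a with the endothelial level in CV was -0.866 in series M and -0.326 in series Z. In CVP it was 0.879 and -0.382, and in CA 0.594 and -0.0248. The highest klf6a value of CV in series M, 310.4 FPKM in layer 12, came with an endothelial level of 0.126. The part of endothelial or epidermal content in the klf6a values was not tested. Each CVP capture of series Z was above each CA capture for klf6a, and the share of all genes with no such overlap was not counted. In that series klf6a rose in CVP against CA by 2.85 ± 0.77 (limma adjusted p = 0.0254; 6 of 6 sections), where 4.45% of genes were called. The call was lost without layer 6 (1.74, adjusted p = 0.160), layer 10 (2.95, 0.0608) or layer 19 (2.92, 0.0719). It was also lost with a pseudocount of 0.1 (3.43, 0.0523), limma-voom (2.73, 0.0756), thinned reads (2.85, 0.0557) and detected genes as a covariate (2.62, 0.175). In series M the same change was 1.49 ± 0.92 (limma adjusted p = 0.398), where 3.37% of genes were called. CV against CA gave 1.46 ± 0.92 in series M and 2.01 ± 0.77 in series Z (limma adjusted p = 0.486 and 0.151), and 2.67% and 4.3% of genes were called there. CVP against CV gave 0.03 ± 0.92 in series M, with 2 of 6 sections higher in CVP, and 0.84 ± 0.77 in series Z, with 6 of 6 (limma adjusted p = 1 and 0.783; 4.9% and 0.441% of genes called). The median change of all genes was 0.57 and 0.56 in CVP against CA (series M and Z). It was 0 and 0.25 in CV against CA, and 0.56 and 0.27 in CVP against CV. By mean log2 level the order of klf6a was CVP, CV, N, CA, L, R in series M and CVP, CV, N, CA, R, L in series Z, and no 2 neighbours in either order passed the test. For the neighbours not yet given, the share of genes called was 28.8% (CV and N), 26% (N and CA), 6.25% (CA and L) and 0% (L and R) in M. It was 24% (CV and N), 25.5% (N and CA), 6.04% (CA and R) and 0.0121% (R and L) in Z. An artery capture was at 0 reads in each series: CA of layer 8 in series M, where 3 reads would be 3.66 FPKM, and CA of layer 6 in series Z, where 3 reads would be 1.26 FPKM.

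The gene ccl25b, which encodes the chemokine ligand, had a far steeper pattern. In series M its lowest, median and highest FPKM were 134.5, 790.7 and 2442.6 in CVP, 0, 33.6 and 631.8 in CV, and 0, 14.3 and 92.6 in CA. In series Z they were 588.8, 1453.4 and 2189.0 in CVP, 439.6, 532.8 and 980.5 in CV, and 0, 0 and 721.0 in CA. Every CVP capture of both series was above every surrounding capture, and the share of all genes that separate in this way was not counted. The highest FPKM in surrounding tissue was 31.9, in R of layer 12 of series M, and 72.9, in R of layer 1 of series Z. The mean in CVP was 991.1 ± 783.3 FPKM in series M and 1408.2 ± 523.3 FPKM in series Z (SD, n = 6 each), which placed ccl25b at rank 30 and rank 31 of all genes. In CV it stood at rank 393 in series M and rank 109 in series Z.

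Captures without a read of ccl25b were found in both tissues. In the CHT it was at 0 reads in 5 of 18 captures in M and 4 of 18 in Z, against 7 of 18 and 10 of 17 in surrounding tissue. Of the artery captures 3 of 6 in M and 4 of 6 in Z were at 0, and no CVP capture was. The depth of a shallow vascular library limits what a 0 means: in series M, 3 reads of ccl25b would be 30.3 and 26.1 FPKM in CV of layers 6 and 8, and 30.5, 11.7 and 30.8 FPKM in CA of layers 2, 8 and 12. The artery captures at 0 in series Z (layers 1, 6, 19 and 22) have limits of 16.0, 4.04, 2.25 and 3.44 FPKM. All of these limits lie below the lowest CVP value of the same series. The amplified libraries carry no molecular identifiers, so such limits cover counting error only.

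Against surrounding tissue, ccl25b rose in the CHT by 3.60 ± 0.73 in M and 5.65 ± 0.78 in Z (limma adjusted p = 0.000415 and 1.34e-06), in 6 of 6 sections of either series. Region by region, only CVP passed against each of N, L and R in series M. There CV changed by 2.84, 2.57 and 1.64 (limma adjusted p = 0.0889, 0.240 and 0.506) and CA by 1.38, 1.11 and 0.17, and neither passed. In series Z, CVP and CV passed against each. CA of series Z did not, with 1.09, 1.07 and 0.38 (limma adjusted p = 0.581, 0.805 and 0.968). The ratio of mean FPKM was 57.6 in series M and 66.4 in series Z. Against neural tissue alone, where the smaller rise of klf6a did not pass, ccl25b rose by 4.09 ± 1.04 and 5.89 ± 1.09 (limma adjusted p = 0.0027 and 5.67e-05). Whether the changes of the 2 genes against neural tissue differ from each other was not tested. Against muscle the changes were 3.36 ± 0.82 in series M and 5.53 ± 0.89 in series Z (limma adjusted p = 0.00242 and 1.57e-05), beside medians of 0.71 and 0.65 over all genes. With the number of genes detected as covariate, the change against neural tissue in series M was 7.77 and no longer passed (adjusted p = 0.163). Without the 7 libraries that lay nearer to another region, the changes against surrounding tissue were 3.35 and 5.86 for ccl25b (limma adjusted p = 0.00301 and 1.41e-05) and 2.87 and 2.13 for klf6a (5.84e-05 and 0.00247). CA of layer 8 in series M, at 0 FPKM for both genes, was left out here for lying nearest to muscle. This setting is thus not neutral for series M.

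Along CVP, CV and CA, the call for ccl25b fell between other neighbours in each series. In series M, ccl25b rose in CVP against CV by 5.22 ± 1.27 (limma adjusted p = 0.0126; 6 of 6 sections), while CV against CA gave 1.46 ± 1.27 (adjusted p = 0.654). In series Z it rose in CV against CA by 6.64 ± 1.33 (limma adjusted p = 0.0015; 5 of 6 sections), while CVP against CV gave 1.11 ± 1.33 (adjusted p = 0.843). CVP was above CA in both series, by 6.68 ± 1.27 and 7.75 ± 1.33 (limma adjusted p = 0.00188 and 0.000528). The CVP and CA captures of series M did not overlap, and those of series Z overlapped through CA of layer 10, at 721.0 FPKM. For this contrast too, the share of all genes without overlap was not counted. The call for CVP against CV in series M was lost without layer 6 (4.01, adjusted p = 0.0815) or layer 8 (4.34, 0.0811), with a pseudocount of 0.1 (6.34, 0.0601) and with detected genes as a covariate (3.52, 0.369). That covariate also ended the call for CVP against CA in series M (5.03, 0.243). Without the 7 libraries nearer to another region, ccl25b stayed called in CVP against CV of series M (5.73, adjusted p = 0.00565), in CV against CA of series Z (6.87, 0.00418) and in CVP against CA of both (8.46, 0.00239, and 8.15, 0.00289). Those libraries were left out for their likeness to another region, among them CVP of layer 17 in series M, nearest to CV. That choice by itself tends to widen contrasts between regions, so these values are no separate support.

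Neither gene passed the direct test of a difference between the series. For ccl25b it was -5.18 ± 1.92 in CV against CA and 4.11 ± 1.92 in CVP against CV (series M minus series Z, limma adjusted p = 0.257 and 0.453), and 0.186% and 0.193% of genes were called there. In the CHT against surrounding tissue it was -2.05 ± 1.12 for ccl25b and 0.46 ± 0.70 for klf6a (adjusted p = 0.478 and 0.862), where 0.848% of genes were called. The remaining differences, in CHT against neural tissue, CHT against muscle and CVP against CA, had shares of 0.328%, 0.629% and 0.045% of genes called, and neither gene was among them. The order of the regions by mean log2 level of ccl25b was the same in both series: CVP, CV, CA, R, L, N. In that order CVP and CV were the only neighbours that passed in series M, and CV and CA the only ones in series Z. CA and R had 7.2% of genes called in M, and L and N had 40.8% in M and 33.7% in Z. In CV of series M the endothelial level was 0.98 and the median of ccl25b 33.6 FPKM, and in CA they were 3.37 and 14.3 FPKM. CV of layer 15, at 631.8 FPKM on 50 reads, had an endothelial level of 1.29. The part of endothelial content in these values was not tested.

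Marker genes of several cell types were also called higher in the CHT. The neutrophil list (7 genes) had a mean log2(FPKM + 1) of 3.90 in CVP, 0.87 in CV and 2.11 in CA of series M, and 6.43, 3.45 and 4.13 in series Z. Its members called higher numbered 3 of 6 and 7 of 7 in the CHT against surrounding tissue, and 3 of 6 and 2 of 7 in CVP against CV. Of the endothelial list 9 of 14 and 14 of 15 were called higher in the CHT, and 8 of 14 and 0 of 15 in CVP against CV. The venous scavenger endothelial list (9 genes, among them the receptors mrc1a, stab2 and lyve1b of venous and lymphatic endothelium) had a mean log2(FPKM + 1) of 6.58 in CVP, 1.99 in CV and 2.65 in CA of series M, and 6.45, 5.78 and 4.38 in series Z. In the surrounding captures of M its level was 2.32 for N, 0.99 for L and 0.61 for R, while those of Z had 2.26 for N, 1.13 for L and 1.36 for R. Members called higher in CVP than in CV numbered 7 of 9 in M and 0 of 9 in Z, where 4.24% and 0.199% of all genes were called higher. In the CHT against surrounding tissue 8 of 9 and 9 of 9 were called higher, beside 8.96% and 13.2% of all genes. In CV of series M lyve1b and gpr182 were at 0, and in CVP of either series no member was at 0. The list and ccl25b both had their highest mean log2 level in CVP, and in series Z both had the order CVP, CV, CA. In series M the list mean was 1.99 in CV and 2.65 in CA, and that of ccl25b 4.30 and 2.83. In that contrast of series M 0 of 9 list members were called, beside 2.67% of all genes, so 0 of so few is near the background. There ccl25b was not called (limma adjusted p = 0.654). The part of these lists in the result was not tested.

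The melanophore list (12 genes of the black pigment cells, among them the melanin enzymes tyr, tyrp1a, tyrp1b and dct) was put together after the genes most like ccl25b had been seen. As 6 of those are in it, its counts and its r with ccl25b restate that choice and support nothing. Its mean log2(FPKM + 1) was 5.65 in CVP, 3.38 in CV and 1.30 in CA of series M, against 1.17 in N, 0.48 in L and 0.25 in R. In series Z it was 6.73 in CVP, 6.11 in CV and 2.23 in CA, against 1.72 in N, 0.97 in L and 1.95 in R. Members called higher in the CHT than in surrounding tissue numbered 10 of 12 in series M and 11 of 11 tested in series Z (8.96% and 13.2% of all genes). In CVP against CA they numbered 8 of 12 and 10 of 11 (3% and 3.75% of all genes were called higher), in CV against CA 2 of 12 and 8 of 11 (1.41% and 3.41%), and in CVP against CV 2 of 12 and 0 of 11 (4.24% and 0.199%). No member was at 0 in CVP of either series, and pmelb was at 0 in CV of both and in CA of series M. The part of pigment cell RNA in the values of ccl25b was not tested.

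The summed melanophore FPKM and ccl25b of some single libraries, in which the 2 went apart or together, are given side by side. In series M, CV of layer 2 had a summed melanophore FPKM of 2639 with 43.8 FPKM of ccl25b, and CV of layer 12 had 1508 with 23.3 FPKM. In series Z, R of layer 6 had 1686 with 11.6 FPKM of ccl25b, and CA of layer 25 had 1200 with 70.0 FPKM. CA of layer 10 in series Z had 333 with 721.0 FPKM of ccl25b. In other libraries the 2 went together. CVP of series M had 2799 with 2442.6 FPKM of ccl25b in layer 6, and 2091 with 1146.9 FPKM in layer 2. CV of layer 8 in series M had 4.02 with 0 FPKM of ccl25b. These are single libraries, and the part of pigment cell RNA in them was not tested. Within CVP, Pearson's r of ccl25b with the melanophore level was 0.823 in series M and -0.0950 in series Z over 6 sections, and with the venous scavenger level 0.876 and 0.202. In CV these r were 0.490 and -0.525, and 0.290 and -0.227. In CA they were 0.615 and 0.737, and -0.0647 and 0.582. The melanophore list holds 6 of the genes most like ccl25b over all libraries, and the venous scavenger list holds mrc1a, another of them. For klf6a within CVP, r with the venous scavenger level was 0.958 in series M and 0.709 in series Z. In CV it was -0.604 and -0.232, and in CA 0.546 and 0.269. The venous scavenger list also holds ctsla, the gene most like klf6a over all libraries. These r describe 6 libraries that share their capture and depth, and no p is given for them.

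**Figure D2:**
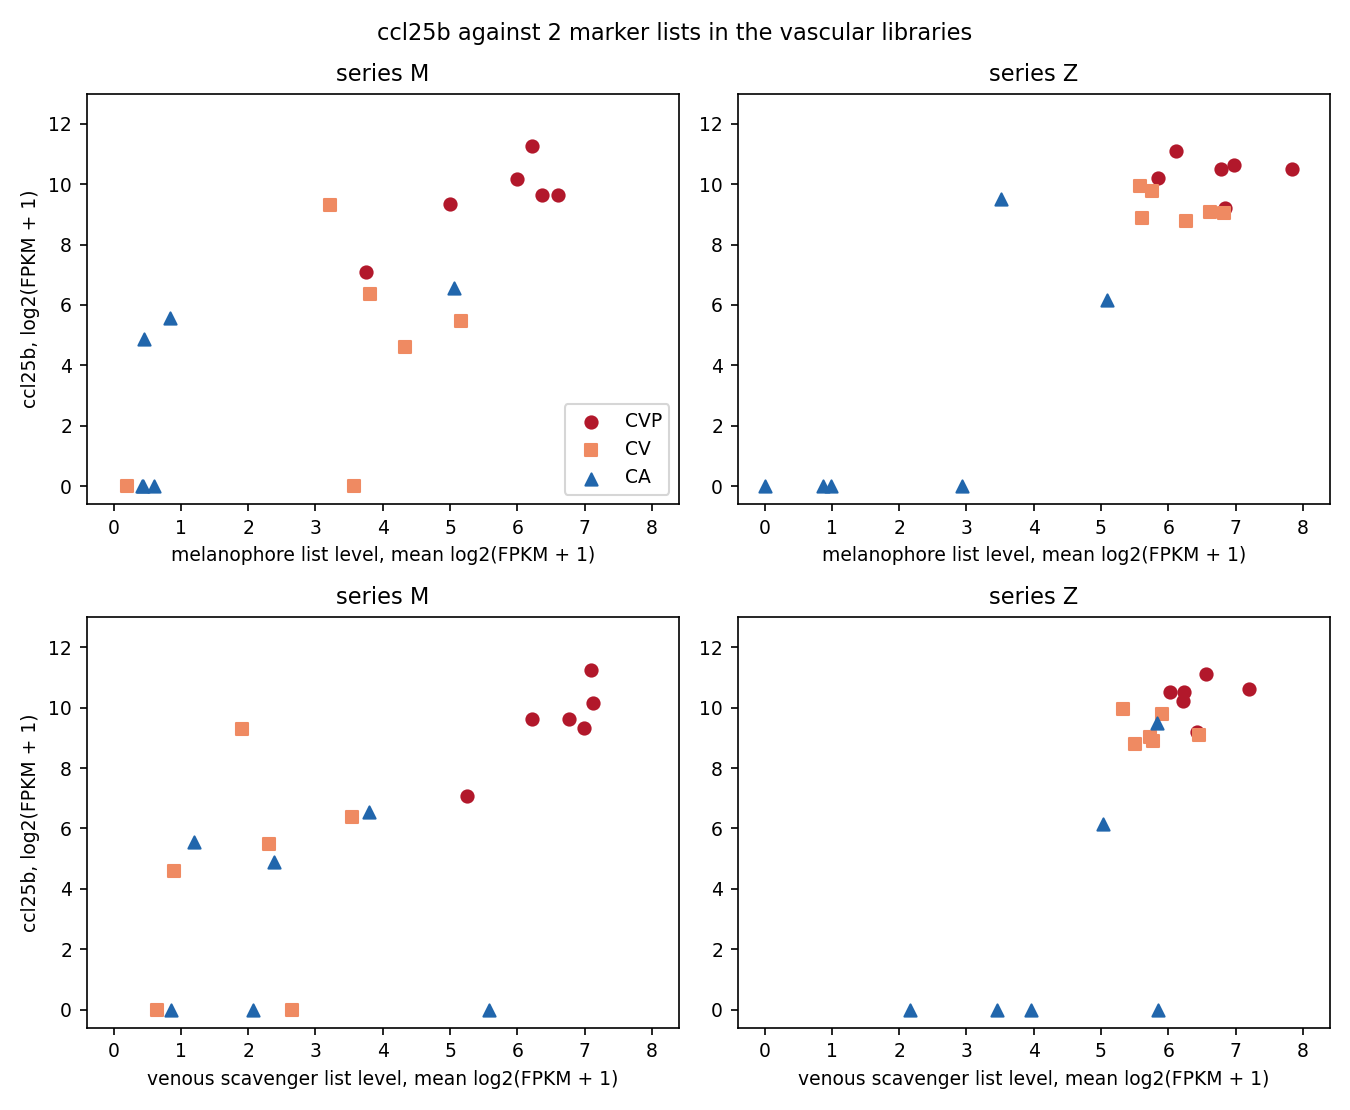
Level of ccl25b, log2(FPKM + 1), against the mean log2(FPKM + 1) of the melanophore list and of the venous scavenger endothelial list in the vascular libraries of series M and Z. Each point is 1 library, marked by region. The melanophore list was put together after the genes most like ccl25b had been seen. Most CVP libraries lie at the upper right, apart from layer 17 of series M at a melanophore level of 3.75, the CV libraries of series Z lie near them, and the CV and CA libraries of series M spread downwards.

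Section by section, klf6a and ccl25b were compared within each vascular region over 6 sections, on the log2(FPKM + 1) scale. In CVP of series M, klf6a was at 276.7, 166.8, 98.9, 241.3, 210.3 and 30.2 FPKM in layer order. There ccl25b was at 1146.9, 2442.6, 789.9, 791.6, 641.2 and 134.5 FPKM. Layer 17 was the lowest for both, and the highest section differed, being layer 2 for klf6a and layer 6 for ccl25b. Pearson's r was 0.777 (exact permutation p = 0.107) and Spearman's rho 0.543 (exact p = 0.297). Without layer 17 alone r was -0.0120, and without layers 8 and 17, the farthest from the klf6a median, it was -0.570, so the positive value rests on layer 17. In CVP of series Z, klf6a was at 129.5, 341.8, 159.4, 122.7, 82.0 and 100.5 FPKM in layer order. There ccl25b was at 2189.0, 1585.8, 1449.5, 1457.3, 588.8 and 1179.0 FPKM. Layer 22 was the lowest for both, and r was 0.540 (exact p = 0.246), rho 0.714 (exact p = 0.136) and r without layers 6 and 22 0.389.

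In CV the relation had opposite signs in the 2 series. In series M, klf6a was at 95.9, 183.0, 128.0, 310.4, 122.5 and 74.2 FPKM in layer order, and ccl25b at 43.8, 0, 0, 23.3, 631.8 and 82.1 FPKM. The sections with the 3 highest klf6a values held the 3 lowest ccl25b values, with r = -0.318 (exact p = 0.536), rho = -0.638 (exact p = 0.2) and r = -0.573 without layers 12 and 17. In series Z, klf6a was at 111.5, 124.0, 74.3, 74.4, 70.9 and 39.1 FPKM, and ccl25b at 876.1, 980.5, 473.4, 439.6, 544.5 and 521.1 FPKM. Layers 1 and 6 were the highest for both, with r = 0.726 (exact p = 0.0972), rho = 0.486 (exact p = 0.356) and r = 0.924 without layers 6 and 25. Whether the r of the series differ was not tested.

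In CA most ccl25b values were at or near 0. In series M, klf6a was at 60.4, 167.9, 0, 105.9, 164.1 and 83.3 FPKM in layer order, and ccl25b at 0, 28.6, 0, 0, 92.6 and 46.3 FPKM. In series Z, klf6a was at 31.8, 0, 30.5, 20.9, 71.4 and 31.3 FPKM, and ccl25b at 0, 0, 721.0, 0, 0 and 70.0 FPKM. Layer 22 of series Z thus had the highest artery level of klf6a with no read of ccl25b. In series M r was 0.543 (exact p = 0.2), rho 0.577 (exact p = 0.25) and r without layers 6 and 8 0.593. In series Z r was 0.247 (exact p = 0.767), rho -0.0338 (exact p = 1) and r without layers 6 and 22 0.484. Without layer 6 alone r in CA of series Z was -0.195.

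Over the 18 vascular libraries of a series, each centred on its region's mean, r was 0.331 in series M (exact permutation p = 0.224 with sections permuted) and 0.268 in series Z (p = 0.569), with rho = 0.205 (p = 0.433) and 0.222 (p = 0.499). Without the 2 farthest sections (8 and 17 in series M, 6 and 25 in series Z) these r were 0.132 and -0.0466. None of the 8 relations passed: Benjamini-Hochberg adjusted p over the 8 was 0.393 to 0.767 for Pearson's r and 0.569 to 1 for Spearman's rho. Among all genes ranked against klf6a, 3.82% had an r at or above that of ccl25b in CVP of series M and 11.1% in CVP of series Z. In CV the shares were 54.2% and 3.7%, and in CA 6.58% and 49.4%. Over all libraries, where the regions themselves spread the values, r was 0.466 in series M (n = 36) and 0.619 in series Z (n = 35), and ccl25b was 395th of 15570 genes for likeness to klf6a. With 6 sections, only relations close to perfect order can pass an exact test adjusted over 8.

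**Figure D3:**
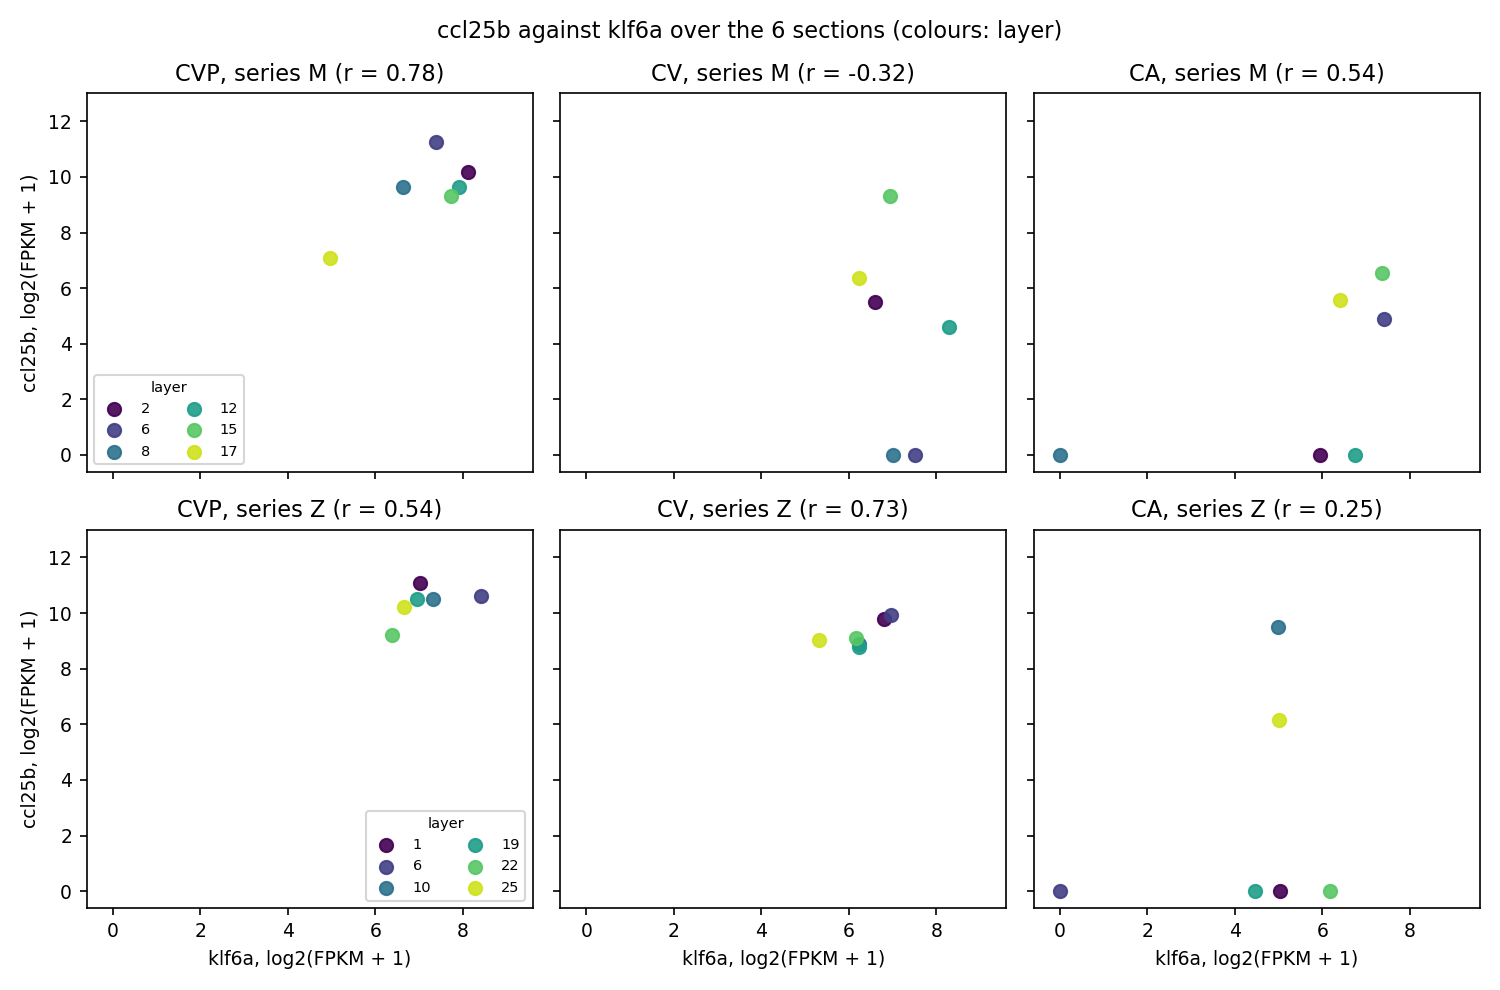
Level of ccl25b against that of klf6a, both log2(FPKM + 1), over the 6 sections of CVP, CV and CA in series M (top) and series Z (bottom). Each point is 1 section, coloured by its layer number, and r is Pearson's r. The 6 values of r run from -0.32 in CV of series M to 0.78 in CVP of series M, where the single point of layer 17 lies apart from the others.

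Along the tail, the mean over the vascular captures did not pass a test for a linear trend with layer number in either gene. The slope of ccl25b was 0.16 ± 0.10 log2 units per layer in series M and -0.01 ± 0.05 in series Z, and that of klf6a -0.01 ± 0.09 and 6.23e-05 ± 0.03 (limma adjusted p = 0.868, 0.983, 1 and 1). In this test limma called 0 genes (0% in either series), with 1000 genes at an unadjusted p under 0.05 in series M and 1800 in series Z, and no other tool was run. With quantile scaling 68 genes were called in series Z, and with single sections left out 0 to 39 (39 without layer 1), neither of the pair among them. Taken region by region, which was chosen after the values were seen, ccl25b in CVP had a negative r with layer in both series. It was -0.771 in series M (exact permutation p = 0.0583) and -0.740 in series Z (exact p = 0.0611), and rho was -0.886 in both (exact p = 0.0333). Without the 2 sections farthest from the median layer, these r were -0.788 and -0.731. For klf6a the same r in CVP were -0.554 and -0.640 (exact p = 0.26 and 0.146), and without the 2 sections 0.616 and -0.937, so the sign in series M rests on them. In CV of series Z klf6a had r = -0.859 (exact p = 0.0222), rho = -0.886 (exact p = 0.0333) and r = -0.770 without the 2 sections. Adjusted over the 12 relations with layer, the lowest p was 0.244 for r and 0.133 for rho, so none passed. With log10 library reads, r of ccl25b in CVP was -0.213 in series M and -0.633 in series Z, and that of klf6a -0.421 and -0.149. The part of depth in the relations with layer was not tested. In CV, r of ccl25b with layer was 0.539 in series M and -0.731 in series Z, and that of klf6a in series M was -0.0958. In CA r with layer was positive for both genes. It was 0.224 in series M and 0.440 in series Z for klf6a, and 0.582 and 0.161 for ccl25b. The layer numbers of the 2 series are not tied to a common position in the sources used here.

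**Figure D4:**
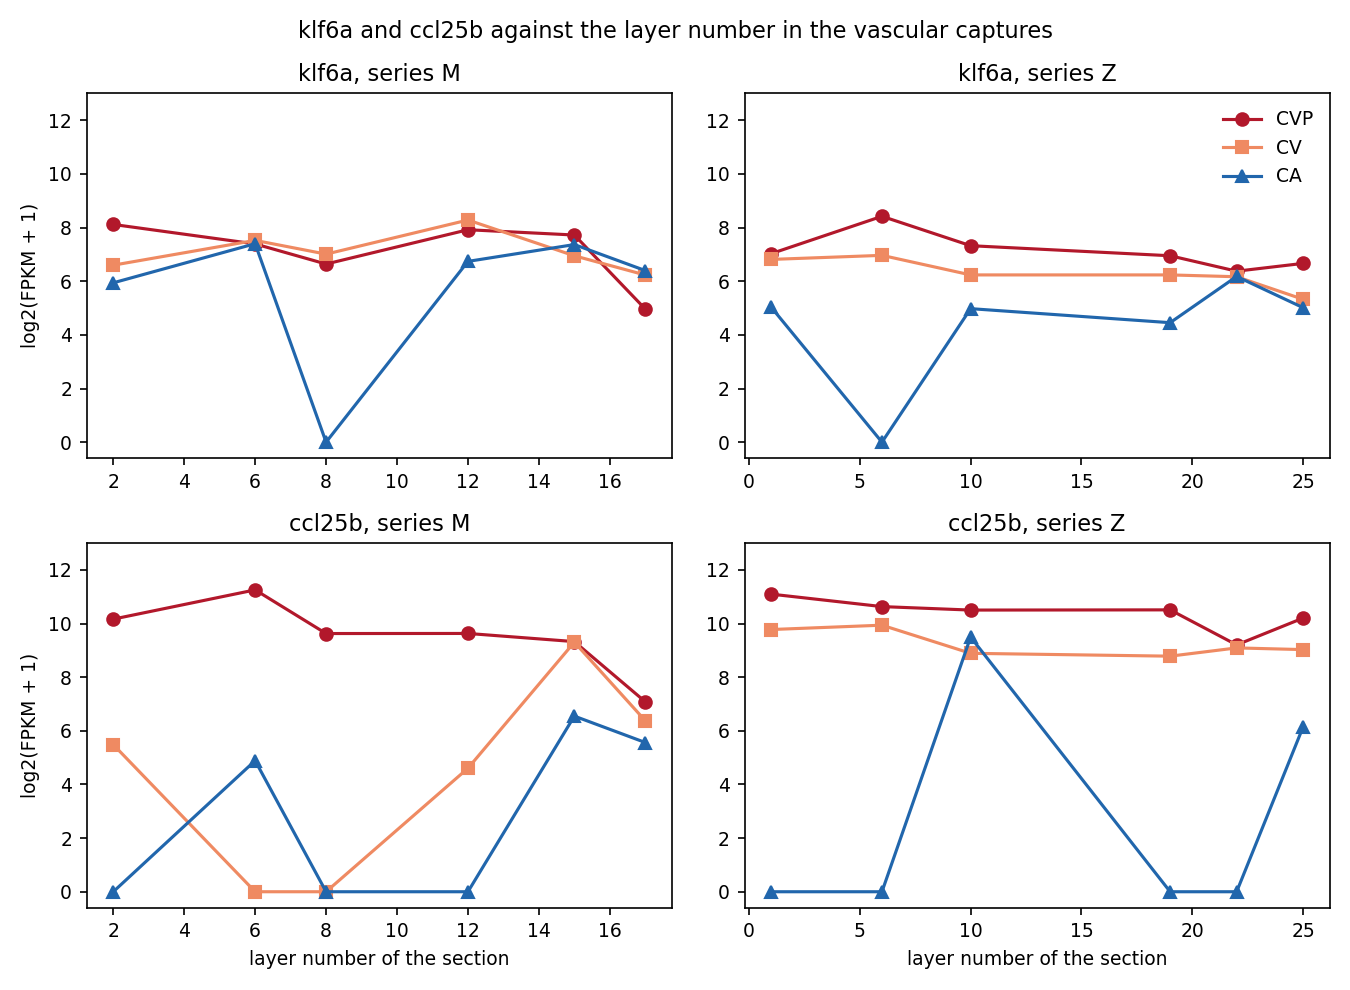
Level of klf6a (top) and ccl25b (bottom), log2(FPKM + 1), against the layer number of the section in CVP, CV and CA of series M (left) and series Z (right). Each point is 1 library, and lines join the sections of a region. In CVP the lowest ccl25b level is at layer 17 of series M and layer 22 of series Z, and klf6a drops to 0 in a single CA capture of each series.

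Among the other Krüppel-like factors (20 listed), 16 were tested in series M and 15 in series Z in the CHT against surrounding tissue. Of these 3 rose in series M and 5 in series Z, and none fell, beside 8.96% and 13.2% of all genes called higher. Their median change was 0.66 and 1.18, beside 0.14 and 0.19 over all genes. The flow-responsive endothelial factor klf2a rose by 1.59 ± 0.56 in M and 3.26 ± 0.59 in Z (limma adjusted p = 0.0441 and 8.56e-05). The factor klf3 rose by 3.40 ± 0.55 and 2.13 ± 0.60 (limma adjusted p = 2.08e-05 and 0.00881). Called in series M alone was klf5l (1.54), and called in series Z alone were the erythroid factor klf1 (4.06), klf2b (2.78) and klf11b (2.32). Against klf6a at 171 and 156 FPKM in CVP, klf2a averaged 14.4 and 30.9 FPKM there and klf3 41.6 and 22.2 FPKM. The paralog klf6b was at 0 in all 36 libraries of series M, and in series Z it had 8 reads in CV of layer 1, 2 reads in CV of layer 10 and 1 read in N of layer 22.

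Of the other CC chemokine ligands (31 listed), 11 were tested in series M and 7 in series Z, and their median change in the CHT against surrounding tissue was 0.89 and -0.30. limma called 0 of them in either series, and at an unadjusted p under 0.05 there was 1 in series M and 0 in series Z. Beside 8.96% and 13.2% of all genes called higher, 0 of so few is near the background. limma-voom on recovered reads called 11 higher in series M, where it called 10600 of the 18263 genes tested, and 0 in series Z. In other contrasts where ccl25b was called, single ligands were called too. In CVP against CA these were ccl34b.1 in M (3.08 ± 0.82, limma adjusted p = 0.0290) and ccl44 in Z (4.30 ± 1.08, adjusted p = 0.0161; 0.03 ± 1.02 in M), beside 3% and 3.75% of all genes called higher. In CVP against CV of M, ccl34b.1 was higher (3.08 ± 0.82, adjusted p = 0.0215) and ccl39.5 lower (-3.09 ± 0.94, adjusted p = 0.0470). In the CHT against muscle of M ccl34b.4 was higher (2.18 ± 0.79, adjusted p = 0.0396), beside 19.1% of all genes in M and 22.1% in Z. In the CHT against neural tissue of Z ccl34b.8 was lower (-2.49 ± 0.74, adjusted p = 0.0103). These 5 were named after their values were seen. The paralog ccl25a had 2, 1 and 1 reads in N of layers 8, 12 and 15 of series M. In series Z it was seen in CVP only, with 19.0, 27.0 and 17.3 FPKM (13, 28 and 28 reads) in layers 19, 22 and 25. These are the 3 highest layer numbers of that series, and the same captures held 1457.3, 588.8 and 1179.0 FPKM of ccl25b. Their library totals were 1198125, 1816782 and 2845579 reads. The CVP captures of layers 1, 6 and 10, without a read of ccl25a, had 215242, 1448665 and 374161 reads. The part of depth and of layer was not tested.

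**Figure D5:**
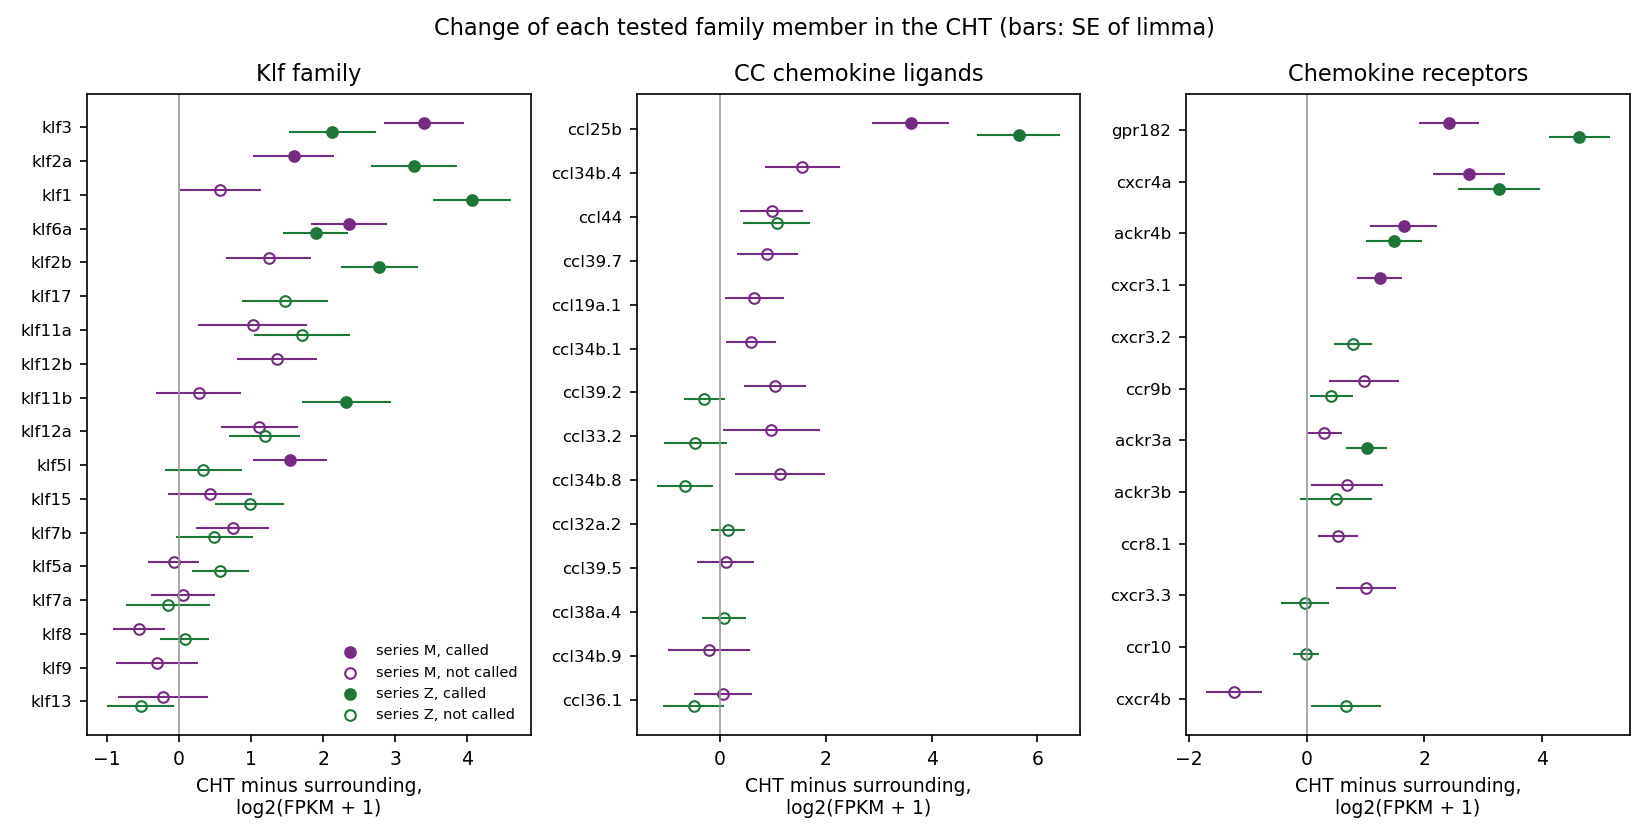
Change in the CHT against surrounding tissue, log2(FPKM + 1), of the tested members of the Krüppel-like factors, the CC chemokine ligands and the chemokine receptors in series M and Z. Points are estimates, bars are standard errors and filled points passed the test (limma adjusted p under 0.05). Among the ligands only ccl25b is filled in either series, at 3.60 and 5.65, and klf6a, klf2a and klf3 are filled in both.

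The receptors of Ccl25 were sparse. The receptor gene ccr9a was too low to be tested in either series, yet in CVP of series Z it had 30.0, 18.4, 16.0 and 21.4 FPKM in layers 1, 19, 22 and 25 (12, 41, 54 and 113 reads), and 1 read each in N of layer 1 and CV of layer 25. In series M its highest value was 37.3 FPKM (17 reads) in CA of layer 17, and it was seen in CVP of layer 2, CV of layer 12 and 4 N captures at up to 7.10 FPKM. The duplicate ccr9b changed by 0.98 ± 0.60 in M and 0.42 ± 0.36 in Z in the CHT against surrounding tissue (limma adjusted p = 0.282 and 0.458). Its highest values, 98.4, 72.8 and 52.9 FPKM, lay in CV of layers 6, 8 and 15 of series M and rested on 14, 12 and 6 reads. The lymphoid homing receptor ccr7 was seen in 4 libraries of series M and 4 of series Z, in CVP and N. Receptor reads were thus few in every region, and shares of cells that carry a receptor cannot be read from them.

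Over the chemokine receptor list (25 listed), 10 were tested in each series, of which 4 rose in the CHT in each and none fell, beside 8.96% and 13.2% of all genes called higher. Their median change was 1.00 and 0.73, beside 0.14 and 0.19 over all genes. The scavenging receptor gene ackr4b, whose mammalian product binds CCL19, CCL21 and CCL25, rose by 1.64 ± 0.58 in M and 1.48 ± 0.48 in Z (limma adjusted p = 0.0418 and 0.0230). The venous endothelial receptor gpr182 rose by 2.42 ± 0.51 and 4.62 ± 0.52 (limma adjusted p = 0.000563 and 2.26e-08), and the Cxcl12 receptor cxcr4a by 2.75 ± 0.61 and 3.26 ± 0.69 (limma adjusted p = 0.00113 and 0.000578). The gene gpr182, which is also in the venous scavenger list, rose in CVP against CV by 6.03 ± 0.88 in series M (limma adjusted p = 6.63e-05), while in series Z its change was 0.32 ± 0.88 (adjusted p = 0.948).

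Other niche and vessel genes were set beside the pair. Of 27 secreted and membrane niche factors, 22 were tested in series M and 21 in series Z, and 10 and 9 rose in the CHT, beside 8.96% and 13.2% of all genes called higher. In series Z 1 fell (angptl2b, -1.66), beside 8.86% and 8.78% of all genes called lower in M and Z. The median change of the niche factors was 1.29 and 0.98. The largest mean changes among those called in both series were those of bmp4 (2.75 and 3.49), igf2b (2.67 and 3.55), angpt1 (2.35 and 2.91) and cxcl12b (2.84 and 1.60), a bone morphogenetic protein, an insulin-like growth factor, the Tie2 ligand and the chemokine that retains blood stem cells. The change of ccl25b exceeded each of them in both series, and that of klf6a lay within their range, though no difference between genes was tested. Of 20 shear-stress and endothelial transcription factors, 6 of 15 tested rose in M and 10 of 17 in Z, beside the same 8.96% and 13.2%, and their median change was 1.24 and 1.72. Among them fli1a rose by 3.15 and 5.51, fli1b by 3.01 and 5.41, etv2 by 3.32 and 3.96 and sox7 by 3.47 and 2.66, all regulators of endothelial identity.

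The genes whose pattern was most like that of each member were ranked by the lower of the 2 series' Pearson r over all libraries (36 in series M, 35 in series Z). Genes with names in the style of clones were passed over, which left out 1 for ccl25b and 0 for klf6a. For klf6a the first was ctsla, a lysosomal cathepsin, with r = 0.794 in series M and 0.769 in series Z. It was followed by slc37a2, a sugar-phosphate transporter (0.725 and 0.741), ctnnd1, the p120 catenin of cell junctions (0.719 and 0.695), and cdon, a Hedgehog co-receptor (0.702 and 0.681). Then came itga8, tmem176l.3a, mllt4a, plpp3, sntb2 and vps39, the last at 0.669 and 0.662. For ccl25b the first 4 of the genes named were pigment genes: oca2 (0.765 and 0.833), tyrp1b (0.775 and 0.763), tyrp1a (0.800 and 0.761) and pmela (0.760 and 0.783). They were followed by the apelin receptor aplnra (0.760 and 0.736), cdon (0.723 and 0.759), the tyrosinase gene tyr (0.722 and 0.789), the venous mannose receptor mrc1a (0.712 and 0.741), the pigment transporter slc45a2 (0.706 and 0.799) and p3h2 (0.704 and 0.696). The Hedgehog co-receptor cdon was thus the gene named for both.

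With the regional differences taken out, over the 18 vascular libraries centred on their region, other genes came first. For klf6a these were qkia, an RNA-binding protein (0.785 and 0.862), calr3a, a calreticulin (0.757 and 0.789), srsf2a, a splicing factor (0.777 and 0.679), kdm1a, a histone demethylase (0.675 and 0.693) and pcdh18b (0.675 and 0.727). For ccl25b they were the interleukin 10 receptor il10ra (0.682 and 0.783), tyrp1b (0.707 and 0.670), oca2 (0.669 and 0.715), ACTC1 (0.669 and 0.722) and jun (0.662 and 0.624). Of the pigment genes, tyrp1b and oca2 were named both with and without the regional differences. The r are descriptions over libraries that share sections and depth, and are given without p.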

How the data were processed

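The authors deposited 1 table per series with FPKM of 25067 protein-coding genes in 36 libraries, scaled to gene length and the reads of the library. Per the submitters' processing notes, FastQC, HISAT, HTSeq and DESeq2 and the build GRCz10 were used, with no versions or roles. Amplification in the manner of single cells without named molecular identifiers lets PCR copies count as reads. A few abundant genes lower all other FPKM of a library, and shallow libraries set weak genes to 0.

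Whole reads were recovered from the FPKM steps for all genes above 0 (23948 in series M, 23482 in series Z, within 0.001 reads), and used for depth, floors of 3 reads, limma-voom and thinning. A library that equalled the rounded-up mean of 2 others in all of its 7859 genes was left out. Of the deposited columns 0 could not be tied to a sample. The labels give no strand for the counting.

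Each series was fitted alone with limma 3.58.1 in R 4.3.3, with its trend option, on log2(FPKM + 1), the deposited values carrying no log2. A gene needed an FPKM of 1 or more in 6 libraries (18263 passed in M, 16547 in Z and 15571 in both). The model had terms for region and section, two-sided tests and a Benjamini-Hochberg adjusted p under 0.05. A fold on this scale understates the change of low genes. A joint fit gave differences between series. The section term pairs the 6 captures of a section, as the design text states. Same-section libraries deviated together only weakly, with a mean r of 0.00979 in series M and 0.0240 in series Z, against -0.00194 and -0.00446 between sections.

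Relations over sections have exact permutation p over all 720 orders (Python 3.11.15, scipy 1.17.1). The code was tested on simulated data. List levels are the mean log2(FPKM + 1) of the members in the table. The genes named were klf6a and ccl25b, the 10 and 5 most like each, family and receptor members called in both series, the paralogs and the receptors ccr9a, ccr9b and ccr7, and up to 4 called members of other lists. Single members called in 1 series were added after their values were seen. The members and lists were chosen with earlier results of these data known.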

Additional observations from a re-analysis of the deposited data

Results flagged for a closer look

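Of 24 groups of 5 or 6 libraries (2 genes, 6 regions, 2 series), 2 held a sample far from the others, and chance gives about 1 such group in 20. Both concern klf6a in the artery. In CA of series M, layer 8 had 0 FPKM while the other 5 sections had 60.4 to 167.9 FPKM, and the gap to the nearest section was 0.803 of the whole range on the log2 scale. That library also lay nearest to muscle. In CA of series Z, layer 6 had 0 FPKM while the other 5 had 20.9 to 71.4 FPKM, with a gap of 0.721 of the range. That library held 704921 reads, so 3 reads would be 1.26 FPKM. No comparison had every section of series M on one side of 0 and every section of series Z on the other.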

How the results depend on the processing

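Of the recomputed values, 825 kept their direction and their side of the threshold, or moved a count by less than 1.5 times. Results that were not called and stayed so are among the 825. Of the others, 43 moved a count by more, 26 changed sign, 13 lost a call and 1 gained a call. Without the replicate block no call of the pair changed; klf6a in the CHT against surrounding tissue of series M then had an adjusted p of 0.00118.

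Region comparisons of the pair changed as follows, and the cause was not tested. With detected genes as a covariate, calls were lost for ccl25b in series M in CHT against neural tissue (7.77), CVP against CA (5.03) and CVP against CV (3.52), and for klf6a in CVP against CA of series Z (2.62). The last was also lost with a pseudocount of 0.1 (3.43), limma-voom (2.73) and thinned reads (2.85, added after seeing the data), and ranged over 1.74 to 3.38 with single sections left out. The call for ccl25b in CVP against CV of series M was lost with a pseudocount of 0.1 (6.34) and ranged over 4.01 to 6.26. Quantile scaling added a call for klf6a in CHT against neural tissue of series Z (2.04).

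Values near 0 changed sign: klf6a in CVP against CV of series M (limma-voom -0.23; single sections left out, -0.27 to 0.29), the series difference of klf6a in CHT against surrounding tissue (quantile scaling, -0.0164) and in CV against CA (sections left out, -1.67 to 0.43), and that of ccl25b in CVP against CA (0.31 without libraries nearest to another region). Layer trends turned for klf6a in series M (pseudocount 0.1, 0.00786; sections, -0.0395 to 0.0533), ccl25b in series Z (pseudocount 0.1, 0.0123; rank of layer, 0.0583; sections, -0.0535 to 0.0275) and klf6a in series Z (quantile, -0.00313; rank, -0.00238; sections, -0.0187 to 0.0233). The relation of the pair turned in CVP of series M (without the 2 farthest sections, -0.570; sections, -0.0120 to 0.910), CA of series Z (linear FPKM, -0.00947; sections, -0.195 to 0.440) and over centred libraries (series M without libraries nearest to another region, -0.0384; series Z without the 2 farthest sections, -0.0466; sections, -0.0569 to 0.428).

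Counts of genes called moved by over 1.5 times. In CHT against surrounding tissue of series M, 3255 became 2083 with the covariate and 10600 with limma-voom. In CHT against neural tissue, 5296 in series M became 310 with the covariate, 2944 with quantile scaling and 3483 thinned, and 4659 in series Z became 2418 with the covariate. In CHT against muscle, 4472 in series M became 2450 with quantile scaling and 15490 with limma-voom, and 4337 in series Z became 2313 and, with the covariate, 1785. In CV against CA, 488 in series M became 301 to 685 with sections left out, and 712 in series Z became 466 with the covariate. In CVP against CA, 615 in series M became 191 (quantile), 38 (covariate), 261 (limma-voom), 319 (thinned) and 224 to 915 (sections), and 737 in series Z became 328 (quantile), 196 (covariate) and 405 to 717 (sections). In CVP against CV, 895 in series M became 327 (quantile), 66 (covariate), 436 (limma-voom), 549 (thinned), 1635 (without libraries nearest to another region) and 413 to 1471 (sections), and 73 in series Z became 37 (pseudocount 0.1), 132 (without those libraries), 47 (thinned) and 33 to 77 (sections). Leaving out libraries nearest to another region tends by that choice to widen contrasts between regions. Shallow vascular libraries of series M limit what a 0 of ccl25b shows.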
